A study of Mus musculus with 2 samples.

Results

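The genes described here belong to enzyme families that build the sugar chains of mucins, and some of them act on other glycans instead. They were taken as the probe sets whose single gene symbol names a polypeptide N-acetylgalactosaminyltransferase (*Galnt*), fucosyltransferase (*Fut*), sialyltransferase (*St3gal*, *St6gal*, *St6galnac*), N-acetylglucosaminyltransferase (*B3gnt*, *Gcnt*), galactosyltransferase (*B3galt*, *B4galt*) or carbohydrate sulfotransferase (*Chst*), together with *C1galt1*, *C1galt1c1*, *A4gnt*, *Abo*, *B4galnt2* and *B4galnt3*. This gave 83 genes, each with 1 probe set, of 19505 named genes in all. *St6gal2*, *St6galnac4* and *St6galnac6* were not analysed here. Total RNA had been hybridized to Clariom S mouse arrays from gastric organoids of aged mice (more than 18 months of age, per the study's methods) and of young mice (2 to 4 months), with 1 array per group. The mice of the study were C57BL/6, no genotype or drug set the groups apart, and both cultures were grown in Matrigel in one medium with Wnt3a, R-Spondin1, Chir99021, EGF, Noggin, FGF10, SB431542, Y-27632 and valproic acid. How many mice stood behind each array was not given in the sources used here.

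Mucins are long glycoproteins whose serines and threonines carry dense O-glycans. A GALNT enzyme starts each chain in the Golgi with N-acetylgalactosamine, other enzymes extend it to a core structure and then to longer chains of galactose and N-acetylglucosamine, and fucose, sialic acid, sulfate or a further N-acetylhexosamine closes the ends. In the stomach these ends form the blood group and Lewis antigens of surface mucus and the α1,4-linked N-acetylglucosamine of gland mucus. Several of the families also act on N-glycans, glycolipids or proteoglycans.

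Signals are given on the log2 scale. To mark background, 1412 genes for odorant and vomeronasal receptors were taken as silent in the stomach, and the value that 95% of them stayed under served as the reference. It lay at 5.54 on the aged array and 5.36 on the young array. Of the 83 enzyme genes, 47 were above it on at least 1 array, 41 on both, 6 on the young array alone and none on the aged array alone. The other 36 were under it on both arrays and receive no fold. A gene under the reference on its dimmer array has a lower bound, counted from the reference. With 1 array per group, no difference was tested, and age cannot be told apart from any other difference between the cultures. Among those receptors the aged minus young values scattered with an SD of 0.51. This is the only measure of precision and holds for dim genes. In RNA of a whole culture, fewer cells of a type and less RNA per cell cannot be told apart.

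Epithelial RNA was present on both arrays, and markers of other tissue cells were near background. All 8 epithelial markers were above the reference on both arrays, of which *Epcam* (14.74 on the aged array and 12.87 on the young array), *Ehf* (13.17 and 11.80) and *Cldn7* (11.67 and 10.50) were 2-fold or more higher in aged organoids and *Elf3* (11.41 and 12.38) was 1.95-fold lower. In contrast, none of 5 leukocyte and none of 4 endothelial markers measured was above it on either array. Of 5 fibroblast markers, 2 were just above it, *Col1a1* (6.15 on the aged array and 5.92 on the young array) and *Lum* (5.65 and 5.28). Gastric surface mucous cells were hardly marked, since *Muc5ac* and *Gkn1* were under the reference on both arrays and *Tff1* (4.83 and 5.84) and *Gkn2* (5.65 and 5.85) lay near it. Other mucous markers differed between the arrays. The trefoil factor gene *Tff2* of mucous neck cells was at 12.76 on the aged array and 4.43 on the young array. The other marker measured for mucous neck and gland mucous cells, *A4gnt* (3.84 and 4.77), was under the reference on both. Of 6 markers of intestinal goblet cells, *Fcgbp* (11.90 and 6.68), *Clca1* (7.19 and 4.79) and *Agr2* (9.14 and 7.32) were higher in the aged array. The goblet cell markers *Muc2*, *Atoh1* and *Spdef* were under the reference on both. The part of epithelial content and of these cell types in the enzyme signals was not tested.

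The widest differences between aged and young organoids were among the sialyltransferase genes. The sialyltransferase gene *St3gal6* was bright in young organoids and at background in aged organoids, while *St3gal4*, whose enzyme attaches sialic acid in the same linkage, was about 10-fold higher in aged organoids. Genes for 4 fucosyltransferases and for *B4galnt2*, which makes the Sda antigen, were higher as well. Of 9 measurable genes that start the chain, 1 was at least 2-fold apart. In all, 17 of the 47 genes (36.2%) were at least 2-fold apart, against 23.2% of the 11558 genes above the reference on at least 1 array. Of these 17, 9 were higher in the aged array (19.1%, against 11.3% of all genes) and 8 were lower (17.0%, against 11.8%). The median difference of the 47 genes was 0.01 and that of all genes 0.00, so that the enzyme genes as a whole leaned to neither side. Of the 8 lower genes, 5 were under the reference on the aged array and so passed the filter through the young array alone, and with signals under the reference set to it, 15 genes were at least 2-fold apart, against 20.9% of all genes.

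**Figure D1:**
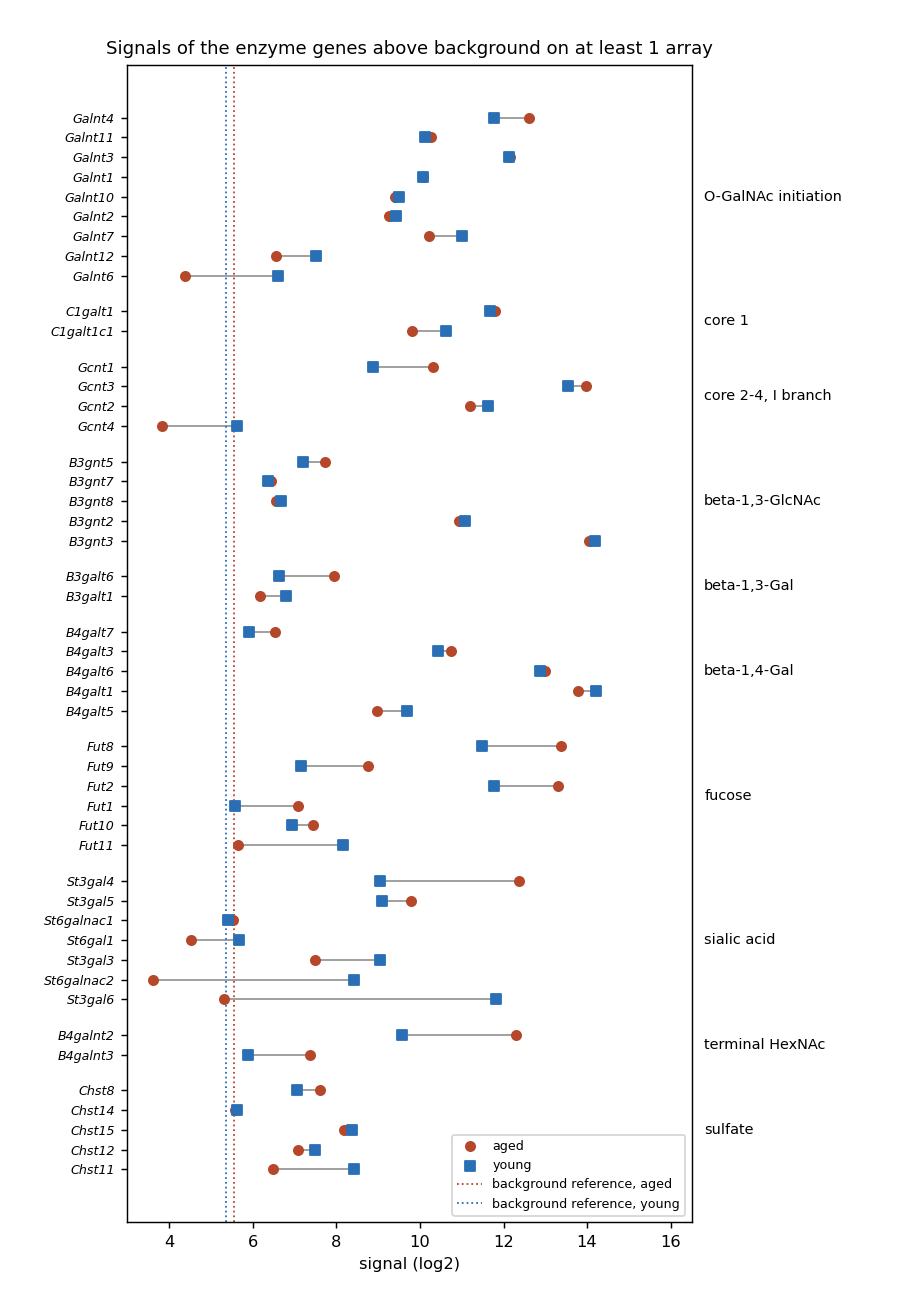
Log2 signals (horizontal axis) of the 47 enzyme genes above background on at least 1 array, in rows grouped by step of synthesis, with circles for the aged array, squares for the young array and dotted lines at the background references (5.54 aged, 5.36 young). Pairs lie close together in most of the upper rows and far apart in several fucose and sialic acid rows, with *St3gal6* at 5.31 (aged) and 11.81 (young).

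**Figure D2:**
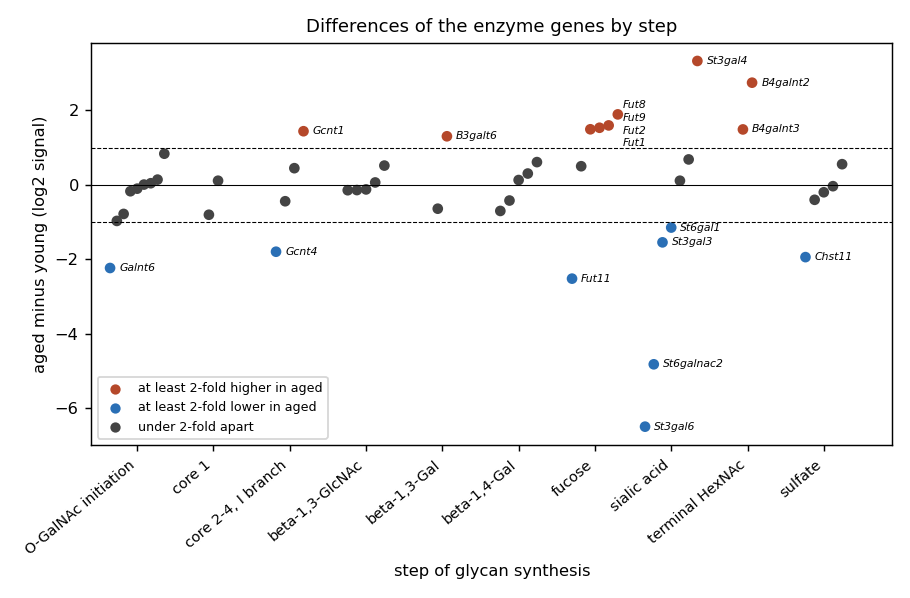
Aged minus young log2 signal (vertical axis) of the same 47 genes, 1 point a gene, by step of synthesis, with dashed lines at 2-fold and names beside the 17 genes at least 2-fold apart. Differences run from −6.50 (*St3gal6*) to 3.33 (*St3gal4*), and both ends lie in the sialic acid column.

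Promoter windows are shown for *St3gal6*, which was lower in aged organoids, and for *St3gal4* and *B4galnt2*, the enzyme genes with the largest differences towards higher signals. No window was found for *St6galnac2*, which was further apart than *B4galnt2*. The windows run from 250 bases before to 50 bases after an annotated start, from RefSeq on GRCm38.p6, 5′ to 3′ along the gene. Capitals mark CpG dinucleotides, the sites at which mammalian DNA is methylated, and methylation was not measured on these arrays. All 4 windows lie on the minus strand of their chromosome.
*St3gal6*, chr16:58523377-58523676: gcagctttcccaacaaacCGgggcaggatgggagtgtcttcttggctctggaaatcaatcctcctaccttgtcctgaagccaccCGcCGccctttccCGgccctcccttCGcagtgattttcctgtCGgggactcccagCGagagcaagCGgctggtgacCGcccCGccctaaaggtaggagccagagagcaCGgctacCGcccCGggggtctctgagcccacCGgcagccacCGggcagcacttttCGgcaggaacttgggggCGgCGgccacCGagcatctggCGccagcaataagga
*St3gal6*, chr16:58524204-58524503: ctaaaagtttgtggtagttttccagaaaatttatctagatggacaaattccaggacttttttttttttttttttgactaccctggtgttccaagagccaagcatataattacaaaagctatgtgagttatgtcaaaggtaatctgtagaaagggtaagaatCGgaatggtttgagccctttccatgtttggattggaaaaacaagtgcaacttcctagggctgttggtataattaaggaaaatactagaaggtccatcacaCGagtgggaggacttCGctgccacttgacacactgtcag
*St3gal4*, chr9:35116815-35117114: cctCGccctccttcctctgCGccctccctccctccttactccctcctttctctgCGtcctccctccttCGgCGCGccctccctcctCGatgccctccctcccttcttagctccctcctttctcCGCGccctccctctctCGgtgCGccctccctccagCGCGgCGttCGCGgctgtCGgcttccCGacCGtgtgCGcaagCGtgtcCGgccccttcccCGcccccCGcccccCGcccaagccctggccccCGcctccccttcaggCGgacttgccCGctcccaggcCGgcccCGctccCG
*B4galnt2*, chr11:95914822-95915121: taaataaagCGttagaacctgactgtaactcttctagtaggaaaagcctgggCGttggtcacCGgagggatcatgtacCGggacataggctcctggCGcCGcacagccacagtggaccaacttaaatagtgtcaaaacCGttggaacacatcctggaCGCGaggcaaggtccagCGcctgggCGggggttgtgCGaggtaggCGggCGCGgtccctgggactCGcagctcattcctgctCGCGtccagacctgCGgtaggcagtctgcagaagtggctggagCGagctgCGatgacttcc

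The *St3gal4* window held 31 CpG dinucleotides and the *B4galnt2* window 21. The *St3gal6* windows held 20 and 3, and the start with 3 lies upstream of the other. At least 31 were present in 10.6% of all 32851 windows, at least 20 in 26.5%, and the median window held 7. The median over the 84 windows of the enzyme genes was 18, so counts of 20 and 21 lay near it. The motifs searched on both strands, none of which holds another, were the GC box GGGCGG, bound by SP and KLF factors, the TCF/LEF motif ATCAAAG of Wnt signaling and the CDX motif CATAAA. The GC box occurred 3 times in the *St3gal4* window, 5 times in the CpG-rich *St3gal6* window and 1 time in the *B4galnt2* window. It occurred at least 1 time in 35.7% of all windows and in 56.0% of the windows of the enzyme genes. Neither the TCF/LEF motif (3.73% of all windows) nor the CDX motif (11.9%) was in any of the 4. Windows were found for 63 of the 83 enzyme genes, 84 windows in all, and 1 of these, at 1 of the 4 starts of *Fut8*, held the TCF/LEF motif. A match describes letters and shows no binding.

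Sialic acid transfer showed the widest spread. *St3gal6* and *St3gal4* encode enzymes that place α2,3-linked sialic acid on the galactose of type 2 chains (galactose linked β1,4 to N-acetylglucosamine), the precursor step of sialyl Lewis x. *St3gal6* was at 5.31 on the aged array, under the reference, and at 11.81 on the young array. The aged signal was lower by at least 77.4-fold. By the difference of both signals, −6.50, which uses the aged signal under the reference, 0.363% of all genes above the reference were at least as far apart. *St3gal4* was at 12.38 on the aged array and 9.05 on the young array, above the reference on both, a difference of 3.33 or 10.05-fold, with 2.59% of genes at least as far apart. This pair with the same linkage therefore ran in opposite directions. *St3gal3*, which prefers type 1 chains (galactose linked β1,3), was at 7.49 and 9.04, lower in the aged array by 2.92-fold. *St6galnac2* adds α2,6-linked sialic acid to the first N-acetylgalactosamine of core 1 chains. It was at 3.61 on the aged array and 8.43 on the young array, a decrease of at least 7.42-fold in the aged array. By the difference of both signals, −4.82, which again uses an aged signal under the reference, 1.03% of genes were at least as far apart.

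The remaining sialyltransferase genes were dim or close together. *St6gal1*, which caps N-glycans with α2,6-linked sialic acid, was at 4.52 on the aged array and 5.67 on the young array, where it was only just above the reference, so that its bound is 1.09-fold. *St6galnac1*, the sialyl-Tn synthase gene next to *St6galnac2* on chromosome 11, was at 5.52 and 5.41, near the reference on both arrays. *St3gal5*, the synthase of the ganglioside GM3, was at 9.78 and 9.10, a difference of 0.68. It lies on chromosome 6, whose 552 genes above the reference had a median difference of 0.68. *St3gal1* and *St3gal2*, which sialylate core 1, and *St6galnac3* and *St6galnac5* were under the reference on both arrays.

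Of 8 fucosyltransferase genes, 6 were above the reference on both arrays. Of these 6, 4 were higher in the aged array by 2-fold or more and 1 lower, against 11.3% of all genes higher and 11.8% lower, and their median difference was 1.51. *Fut2*, the secretor gene, and *Fut1* both encode α1,2-fucosyltransferases that form the H antigen. *Fut2* was at 13.31 on the aged array and 11.77 on the young array (2.90-fold), and *Fut1* was at 7.07 and 5.58 (2.81-fold). The 2 genes lie close together on chromosome 7. Of the measured genes between or beside them, *Mamstr*, *Sec1*, *Fgf21* and *Ntn5* were under the reference on both arrays. The others were *Hsd17b14*, at 7.74 on the aged array and 6.67 on the young array (a difference of 1.07), *Bcat2* (−0.40) and *Car11* (−1.08). The aged signal of *Car11* was under the reference. *Fut9*, which makes Lewis x by α1,3-fucosylation, was at 8.75 on the aged array and 7.15 on the young array (3.02-fold). The other genes of α1,3-fucosylation in the Lewis x pathway, *Fut4* and *Fut7*, were under the reference on both arrays.

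*Fut8* adds the α1,6-linked core fucose of N-glycans and so does not act on mucin O-glycans. It was at 13.37 on the aged array and 11.47 on the young array (3.71-fold). *Fut8* lies on chromosome 12, whose 409 genes above the reference had a median difference of 0.60 and of which 28.6% were higher by 2-fold or more, and its own difference of 1.89 exceeded that median by 1.29. *Fut11* ran the other way, at 5.64 on the aged array and 8.16 on the young array (5.74-fold lower in the aged array), and its aged signal was only just above the reference. *Fut10* was at 7.43 and 6.93, less than 2-fold apart.

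Of 4 genes for terminal N-acetylhexosamine and blood group ends, 2 were measurable. Both were higher in the aged array by 2-fold or more, against 11.3% of all genes. *B4galnt2* adds N-acetylgalactosamine to galactose that already carries α2,3-linked sialic acid, which forms the Sda antigen of gut epithelium. It was at 12.31 on the aged array and 9.56 on the young array, a difference of 2.75 or 6.71-fold, with 4.09% of genes at least as far apart. *B4galnt3*, which forms N,N′-diacetyllactosamine ends, was at 7.37 on the aged array and 5.89 on the young array (2.81-fold). It lies on chromosome 6, where 32.8% of genes above the reference were higher by 2-fold or more. *B4galnt3* exceeded the median of that chromosome by 0.81, less than 2-fold. *A4gnt*, the enzyme of α1,4-linked N-acetylglucosamine in gland mucus, was under the reference on both arrays (3.84 and 4.77), and so was the blood group A and B transferase gene *Abo* (5.17 and 4.55).

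The first step of the chain was covered by 19 *Galnt* genes, of which 9 were above the reference. *Galnt1*, *Galnt2*, *Galnt3*, *Galnt10* and *Galnt11* differed by at most 0.17 in either direction. *Galnt3*, for example, was at 12.16 on the aged array and 12.12 on the young array, and *Galnt1*, a broadly expressed initiator, was at 10.08 and 10.07. *Galnt4*, which can add to peptides that already carry N-acetylgalactosamine, was at 12.61 and 11.77, and *Galnt7*, which requires such peptides, differed by −0.78, both less than 2-fold apart. *Galnt12* was at 6.55 on the aged array and 7.52 on the young array, a difference of −0.97 just short of 2-fold. *Galnt6*, a close relative of *Galnt3*, was at 4.37 on the aged array and 6.61 on the young array, lower in the aged array by at least 2.10-fold. It was thus the single initiating gene past 2-fold, 1 of 9, against 23.2% of all genes. *Galnt5*, *Galnt9*, *Galnt13* to *Galnt18*, *Galntl5* and *Galntl6* were under the reference on both arrays.

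Core structures showed 1 gene on each side, against 11.3% of all genes higher and 11.8% lower. *C1galt1*, the core 1 synthase, was at 11.79 on the aged array and 11.68 on the young array, and its chaperone gene *C1galt1c1* was at 9.82 and 10.62. *Gcnt1*, which branches core 1 into core 2, was at 10.31 on the aged array and 8.87 on the young array (2.71-fold higher in the aged array). *Gcnt3*, the mucin-type enzyme for core 2 and core 4, was at 13.98 and 13.54, and *Gcnt2*, which forms the I branches of longer chains, was at 11.20 and 11.64. *Gcnt4*, another core 2 enzyme, was at 3.82 on the aged array and 5.62 on the young array, with a bound of only 1.06-fold. The core 3 synthase gene *B3gnt6* and *Gcnt7* were under the reference on both arrays.

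Among backbone enzymes, 1 of 12 measurable genes was at least 2-fold apart, against 23.2% of all genes. All 5 measurable *B3gnt* genes lay between −0.15 and 0.52. *B3gnt3*, which extends core 1, was at 14.05 on the aged array and 14.19 on the young array, and *B3gnt2*, the main polylactosamine enzyme, was at 10.94 and 11.08. *B3gnt5*, which starts lacto-series glycolipids, was at 7.73 and 7.21, *B3gnt7* at 6.42 and 6.36 and *B3gnt8* at 6.55 and 6.67. The 5 measurable *B4galt* genes lay between −0.70 and 0.61, among them *B4galt1*, which forms type 2 chains, at 13.79 and 14.21. *B4galt3* was at 10.73 on the aged array and 10.43 on the young array, and *B4galt6* at 12.99 and 12.86. *B4galt5*, a lactosylceramide synthase gene, was at 8.98 and 9.68. *B3galt6* was at 7.94 on the aged array and 6.63 on the young array (2.47-fold higher in the aged array). Its enzyme builds the linker of proteoglycans and not mucin chains. *B4galt7*, which acts just before it on the same linker, was at 6.53 and 5.91, less than 2-fold apart. *B3galt5*, which makes type 1 chains in the digestive tract, was under the reference on both arrays, and *B3galt1*, another gene for type 1 chains, was at 6.16 and 6.80.

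Sulfation rested on few measurable genes, since 9 of 14 *Chst* genes were under the reference on both arrays, including *Chst4* and *Chst5*, which sulfate N-acetylglucosamine of mucin-type chains. *Chst11*, which sulfates chondroitin at the 4 position, was at 6.48 on the aged array and 8.43 on the young array (3.84-fold lower in the aged array). The other chondroitin and dermatan sulfotransferase genes above the reference, *Chst12* (7.09 and 7.50), *Chst14* (5.58 and 5.62) and *Chst15* (8.17 and 8.37), were less than 2-fold apart. *Chst8*, which sulfates N-acetylgalactosamine on N-glycans, was at 7.60 and 7.05.

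**Figure D3:**
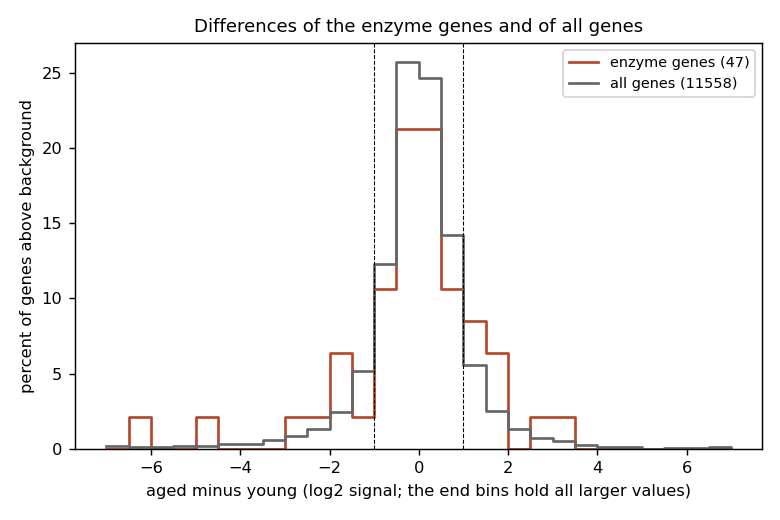
Share of genes above background (vertical axis, percent) by aged minus young log2 signal (horizontal axis, bins of 0.5, dashed lines at 2-fold), for the 47 enzyme genes and for all 11558 genes. Both distributions centre near 0, and the enzyme genes have more of their share beyond the dashed lines (36.2%) than all genes (23.2%).

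For each of the 17 genes, the 3 nearest measured genes on either side in the annotation were read, to see whether the difference was shared along the chromosome. Beside 12 of the 17, at least 1 neighbor above the reference was also 2-fold or more apart in the same direction, with *Fut1* and *Fut2* counted as neighbors of each other, against 1245 of all 2680 genes at least 2-fold apart (46.5%) read the same way. Beside 5 (*B3galt6*, *B4galnt2*, *Fut11*, *Galnt6* and *St3gal6*) there was none. Beside *St3gal6*, 2 of 6 neighbors were above the reference, *Dcbld2* (−0.94) and *Cpox* (0.49), and neither was 2-fold lower. The 5 neighbors of *St3gal4* above the reference had a median difference of −0.01, with *Dcps* (1.19) the single one at least 2-fold higher. Those of *B4galnt2* lay between −0.48 and 0.51, and those of *Fut11* between −0.70 and 0.50. Among 5 neighbors of *St6galnac2*, *Rhbdf2* (−1.73) was at least 2-fold lower. *Fut8* had the most, as 3 of its 5 neighbors above the reference were 2-fold or more higher too, namely *Rab15* (6.55), *Gphn* (2.06) and *Fntb* (1.76), while *Max* (−0.29) and *Mpp5* (−0.27) were not.

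**Figure D4:**
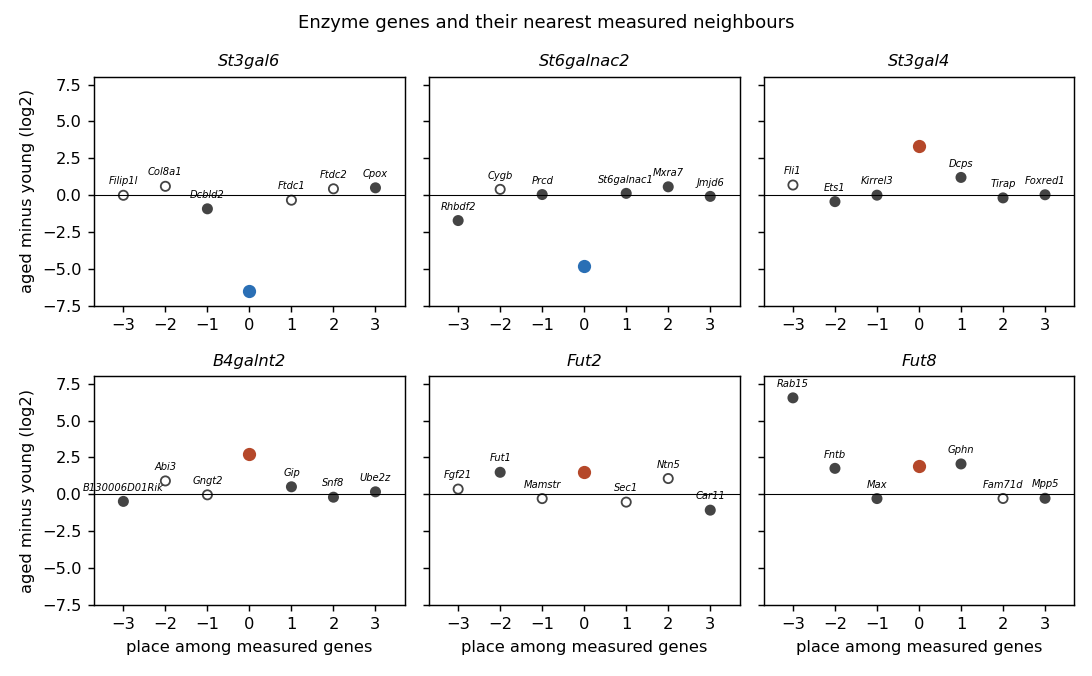
Aged minus young log2 signal (vertical axis) of 6 enzyme genes (large colored points at place 0, red where higher and blue where lower in the aged array) and of the 3 nearest measured genes on either side in gene order (horizontal axis). Filled points are above background on at least 1 array and open points under it on both. The points beside *St3gal6*, *St3gal4* and *B4galnt2* lie between −0.94 and 1.19, whereas *Fut8* has *Rab15* at 6.55.

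Genes that supply the enzymes with acceptors and donors were read beside them. Among 8 mucin genes measured, the membrane mucin gene *Muc1* was at 5.45 on the aged array, under the reference, and 17.46 on the young array, lower in the aged array by at least 3867-fold. The membrane mucin gene *Muc13* was at 8.65 on the aged array and 6.09 on the young array (5.93-fold higher in the aged array). The secreted mucin genes *Muc2*, *Muc5ac* and *Muc5b* were under the reference on both arrays, and *Muc6* was not analysed here. All 22 genes of nucleotide sugar and sulfate donor synthesis were above the reference, of which 3 were higher by 2-fold or more in the aged array and 4 lower, with a median difference of −0.11. Their shares (13.6% and 18.2%) lay near those of all genes (11.3% and 11.8%). For sialic acid, the synthase gene *Nans* was at 12.43 and 11.19 (2.36-fold higher), and *Cmas*, which activates sialic acid, was at 11.08 and 10.43 and lies, like *St3gal5*, on chromosome 6. For fucose, *Gmds*, the first enzyme of the main route to GDP-fucose, was at 14.96 and 14.20, *Gfus*, the next enzyme, was at 7.89 and 7.83, and *Fcsk*, the kinase of fucose salvage, was at 5.72 on the aged array and 6.82 on the young array (2.14-fold lower). For sulfate, the paired synthetase genes ran apart, with *Papss1* at 13.09 and 11.11 (3.96-fold higher) and *Papss2* at 8.42 and 9.47 (2.06-fold lower). *Ugp2*, which makes UDP-glucose, was at 14.26 and 17.14 (7.36-fold lower), and *Galt*, of the same list, was at 5.80 and 7.03 (2.35-fold lower).

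Of 10 Golgi transporter genes of these donors, 1 was higher in the aged array by 2-fold or more and 3 were lower, against 11.3% and 11.8% of all genes, with a median difference of −0.36. The GDP-fucose transporter gene *Slc35c1* was at 8.19 on the aged array and 9.30 on the young array (2.16-fold lower), opposite in direction to *Fut1*, *Fut2*, *Fut8* and *Fut9*. The UDP-galactose transporter gene *Slc35a2* was at 7.80 and 9.23 (2.69-fold lower), and the sulfate transporter gene *Slc26a2*, listed with them but acting at the cell surface, was at 12.77 and 15.33 (5.88-fold lower). *Slc35d1*, also among the 10, was at 9.70 and 10.78 (2.12-fold lower). The CMP-sialic acid transporter gene *Slc35a1* was at 8.67 and 9.56, less than 2-fold apart, and the UDP-N-acetylglucosamine transporter gene *Slc35a3* was at 13.62 and 12.58 (2.06-fold higher).

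**Figure D5:**
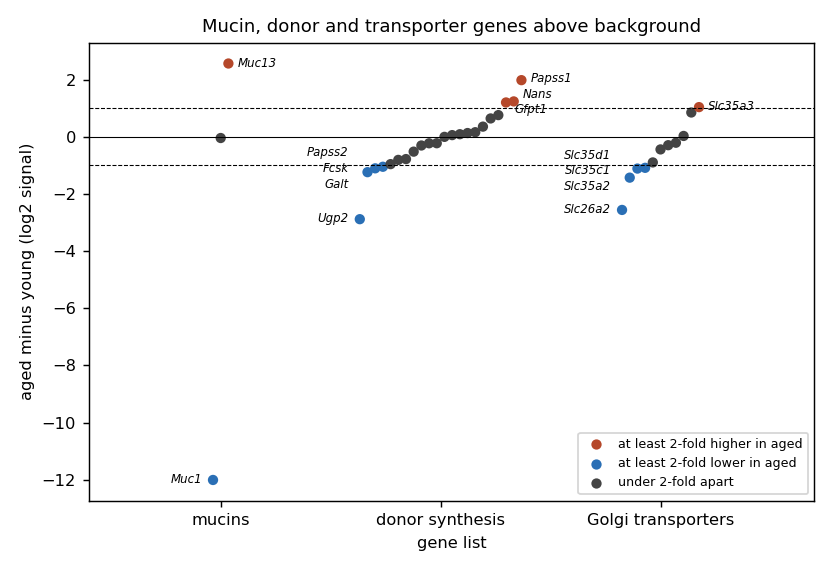
Aged minus young log2 signal (vertical axis) of the mucin, donor synthesis and transporter genes above background on at least 1 array, 1 point a gene, with dashed lines at 2-fold and names for genes at least that far apart. *Muc1* stands furthest down at −12.01 (its aged signal is under the reference), and 4 of the 5 named transporters (*Slc26a2* included) lie below the lower line.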

How the data were processed

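The authors deposited 1 log2 signal for each probe set and array, with 1 array per group, made with RMA in Affymetrix Power Tools (submitters' processing notes, without versions). The base of the logarithm was not given and base 2 was assumed, on which every fold rests. Of 22206 probe sets, 19572 had 1 gene symbol and 2634 none. Symbols were updated by gene identifier to GRCm38.p6, probe sets of a gene were averaged (55 genes), and no further normalization was applied. Differences are aged minus young. A gene was counted if its signals lay 2-fold or more apart and 1 or both exceeded the reference. With 1 array per group no p-value or standard error exists, and precision is limited by the number of arrays. The rule for named genes took every enzyme gene at least 2-fold apart, with the others above the reference by signals or range, and up to 4 genes of a further list at least 2-fold apart, by size of difference. Genes of those lists outside the rule (*Cmas*, *Gne*, *Nanp*, *Gmds*, *Gfus*, *Papss2*, *Fcsk*, *Slc35a1*, *Slc35a3*, *Mgat5*, *Mogs*, *Stt3a*, *Stt3b*, *Neu1*, *Fuca1* and *Fuca2*) were named after their values were seen. Members and lists were chosen with earlier results of these data known. Promoter motifs and the neighbor comparison were chosen after the values were seen. In a simulation of 19505 genes that varied as the receptors did, 97.0% of 100 genes changed 4-fold were found, and 4.76% of unchanged genes were counted. The changed genes were drawn only from genes with a mean signal more than 2 log2 units above the reference. All genes were given the scatter of the dim receptors. The simulation therefore checks the counting and does not give the rate of false counts between these cultures. Python 3.11.15, numpy 2.4.6, pandas 2.3.3 and matplotlib 3.10.9 were used.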

Additional observations from a re-analysis of the deposited data

How the results depend on the processing

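The counts of enzyme genes moved most with the fold threshold. At 4-fold, 6 were apart instead of 17, 2 of them higher and 4 lower in the aged array (*St3gal4* and *B4galnt2*, and *Galnt6*, *Fut11*, *St6galnac2* and *St3gal6*), against 7.58% of all genes, and *Galnt6* reached 4-fold only through an aged signal under the reference. At 1.5-fold, 25 were apart, 12 higher and 13 lower, against 43.7% of all genes. Moving the reference to the 90th or 99th percentile, dropping the filter or leaving out chromosomes 6 and 12 gave totals of 15 to 19. Centring the arrays and quantile normalization gave 17, and subtracting a running median gave 18. These rescalings acted on signals already made with RMA. Taking the brightest probe set could not change the total, since each enzyme gene has 1 probe set. The number of genes read changed with the filter. Without it, 19 of 83 were apart (22.9%, against 15.2% of all genes). At the 99th percentile 15 of 43 were (34.9%, against 24.4%), and at the 90th 18 of 52 (34.6%, against 22.1%). Setting signals under the reference to it, an alternative chosen after the data were seen, gave 15 (against 20.9% of all genes), without *Gcnt4* and *St6gal1*. The median of the enzyme genes stayed between −0.10 and 0.09. Under the rescalings no enzyme gene at least 2-fold apart turned its sign, the largest shift of a difference was 0.13, and *Galnt12* alone crossed 2-fold, after subtraction of the running median. No paired analysis was possible because each group has 1 array. Signal over background limits *St6gal1*, *Gcnt4*, *St6galnac1* and *Chst14*, which lay within 0.31 of the reference on the array where they were highest.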

Other observations

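N-glycan processing genes, which share sugar donors with the mucin enzymes, were read beside them. Of 16 measured, 15 were above the reference, 2 higher by 2-fold or more in the aged array and 4 lower, with a median difference of 0.04. Of all genes above the reference, 11.3% were higher and 11.8% lower. *Mgat4c*, of the family that adds branches to N-glycans, was at 15.68 on the aged array and 9.97 on the young array (52.4-fold higher in the aged array), while *Mgat4a* was at 10.52 and 12.57 (4.15-fold lower) and *Mgat5*, which makes the β1,6 branch, was at 10.15 and 11.38 (2.35-fold lower). The trimming mannosidase gene *Man1c1* was at 5.63 on the aged array and 8.53 on the young array (7.45-fold lower), and *Man2a2* was at 7.23 and 9.48 (4.75-fold lower). The glucosidase gene *Mogs*, on chromosome 6, was at 10.01 and 8.30 (3.27-fold higher). Both catalytic subunits of the transferase that starts N-glycans, *Stt3a* (16.95 and 16.72) and *Stt3b* (14.81 and 14.78), had nearly the same signal on both arrays.

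Genes for removal of sugars were split. Of 8 measured, 2 were higher by 2-fold or more in the aged array (*Hexa* and *Naglu*) and 2 lower (*Neu3* and *Galns*), with a median difference of −0.06. These shares of 25% each stood against 11.3% of all genes higher and 11.8% lower. The sialidase gene *Neu3*, which acts on gangliosides at the cell surface, was at 7.22 on the aged array and 9.29 on the young array (4.19-fold lower), whereas the lysosomal sialidase gene *Neu1* was at 10.26 and 9.64, less than 2-fold apart. The hexosaminidase subunit gene *Hexa* was at 12.31 and 10.15 (4.46-fold higher). The fucosidase genes *Fuca1* (13.49 and 13.71) and *Fuca2* (10.15 and 10.06) were less than 2-fold apart.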
